A study of Mus musculus with 14 samples.

Results

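The genes described here are 9 named members of the insulin and leptin signalling pathways, taken by gene symbol: Insr, Irs1, Irs2, Lepr, Socs3, Stat3, Ptpn1, Ptpn2 and Pik3r1. No measured change was used as a rule, but earlier results of these data were known when these genes were chosen. Of these, 8 were measured, through 21 probe sets, among 17097 genes tested in hypothalamic RNA. Irs2 was not analysed here. Each gene is given by the probe set that named only it and had the highest mean over all arrays, and its other probe sets are given beside it.

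Insulin acts through its receptor tyrosine kinase, which phosphorylates IRS adaptor proteins. These recruit phosphoinositide 3-kinase through its regulatory subunit and so activate the kinase AKT. Leptin, a hormone of fat tissue, acts through a cytokine receptor whose long form activates the transcription factor STAT3, and STAT3 induces Socs3, an inhibitor of the same receptor. Both pathways are damped by the tyrosine phosphatases PTP1B and TCPTP, and in hypothalamic neurons both report energy stores and restrain feeding.

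The series measured RNA of the hypothalamus on Affymetrix HT MG-430 PM arrays in mice 12 weeks old on a mixed C57Bl/6J, FVB/N and 129 background. The 4 groups were POMCMfn1KO mice fasted for 16 h (n = 3), POMCMfn1KO mice fed at random (n = 4), control mice fasted for 16 h (n = 3) and control mice fed at random (n = 4). POMCMfn1KO, called knockout below, denotes loss of the mitochondrial fusion gene Mfn1 from neurons that express pro-opiomelanocortin (POMC). The labels give neither the Cre line nor the alleles of the controls, nor whether 1 array stands for 1 mouse. The p-values set differences between groups against the spread among arrays, which may not be the spread among mice. POMC neurons are a small part of the tissue, so each value is an average over all its cells, in which fewer cells of a type and less RNA per cell cannot be told apart.

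Of 12 hypothalamus markers, 11 were measured. The peptide genes were high, with Pmch between 12.06 and 12.63 and Hcrt between 9.71 and 11.27 on the log2 scale, while the transcription factor genes Nkx2-1 (3.95 to 4.36) and Otp (3.61 to 4.0) lay near the median of 3.64 of 23 probe sets that have no target. Mfn1, the deleted gene, lay between 9.03 and 9.12 in knockout mice and between 8.99 and 9.10 in control mice, and its averaged genotype difference was 0.01 ± 0.03 (SE; limma, adjusted p = 0.999). Control fed replicate 1 stood apart, with the highest score of cortex and hippocampus markers (0.82) and the lowest of hypothalamus markers (-0.60), so the fasting differences of Insr, Pik3r1 and Lepr are also given without it. The sample titles carry numbers, and all 6 fasted arrays but only 1 of the 8 fed arrays, knockout fed replicate 1, have low numbers. Whether these numbers mark a batch is not stated, so that array is set beside the fasting differences.

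Values are log2 expression levels, in which a difference of 1 is a 2-fold change. Levels of different genes were not ranked against each other, because probe sets differ in brightness. Over the 14 arrays Pik3r1, at 10.09 to 10.37, Insr, at 7.97 to 8.42, Irs1, at 7.64 to 8.51, Stat3, at 8.18 to 8.40, Ptpn1, at 8.53 to 8.93, and Ptpn2, at 8.53 to 8.82, were well above the probe sets without a target. Lepr, at 3.72 to 4.94, and Socs3, at 4.04 to 4.54, lay within the range of those probe sets, the brightest of which was at 4.83 to 5.80 in the 14 arrays. Differences of these 2 genes were therefore measured near background.

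After the fast, 2 of the 8 genes changed through their brightest probe sets, and both rose. They were Insr, which encodes the insulin receptor, and Pik3r1, which encodes the p85 alpha regulatory subunit of phosphoinositide 3-kinase. Averaged over the genotypes, Insr was higher by 0.20 ± 0.05 and Pik3r1 by 0.16 ± 0.04 on the log2 scale (SE; 6 fasted and 8 fed arrays), which are 1.15-fold and 1.11-fold. Among all genes tested, 10.0% passed the same threshold, an adjusted p of 0.05 in limma, 5.14% as higher and 4.90% as lower. The median difference of the 8 genes was 0.06, against 0.00 over all genes tested, and 5 of the 8 lay above 0. No other member passed through its brightest probe set. A dim probe set of Insr and a less bright one of Ptpn2 fell past the threshold, as given below. Through the brightest probe sets, Insr and Pik3r1 were also the only members with an unadjusted p under 0.05, which 26.0% of all genes had. Taken 1 genotype at a time, none of the 8 passed in knockout mice (0.696% of all genes did) or in control mice (2.76%), with 3 members in knockout mice and 2 in control mice at an unadjusted p under 0.05 (16.5% and 17.5% of all genes).

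**Figure D1:**
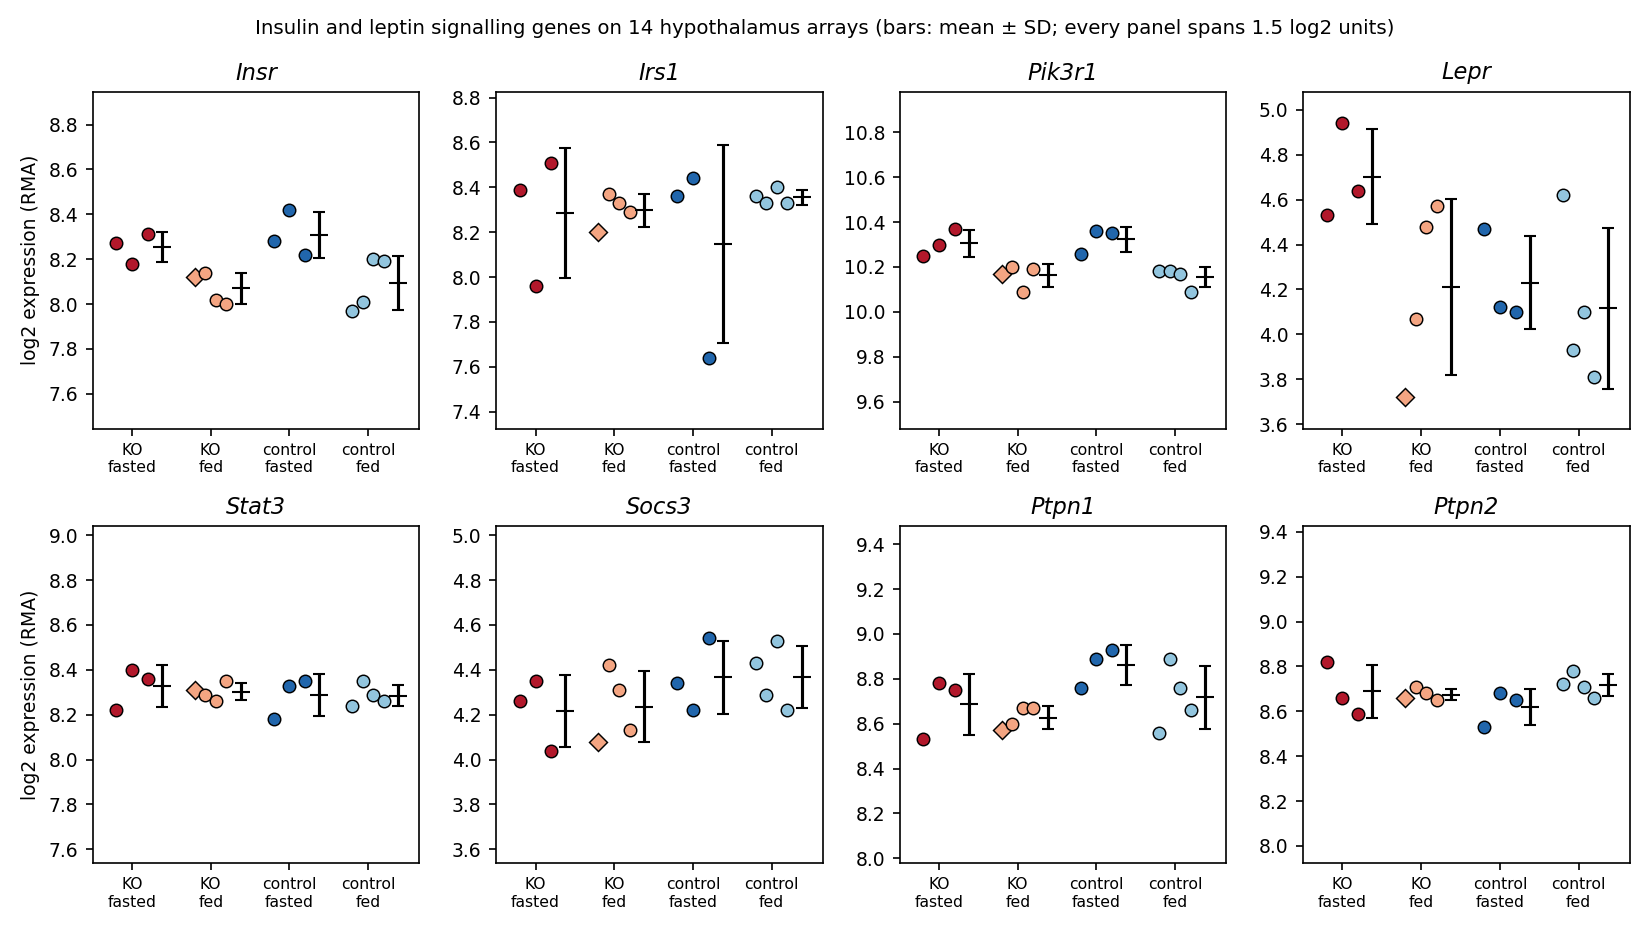
The log2 expression level of each of the 8 measured genes in every array, by group, with group means; the diamond is knockout fed replicate 1, the fed array with a low title number. In Pik3r1 all 6 fasted arrays (10.25 to 10.37) lie above all 8 fed arrays (10.09 to 10.20), while the groups of Irs1, Socs3, Stat3, Ptpn1 and Ptpn2 overlap.

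Insr was at 8.27, 8.18 and 8.31 in knockout fasted mice, against 8.12, 8.14, 8.02 and 8.0 in knockout fed mice. In control mice it was at 8.28, 8.42 and 8.22 in the fasted group, against 7.97, 8.01, 8.20 and 8.19 in the fed group. Within each genotype every fasted array lay above every fed array, which held for 7.37% of all genes as higher in knockout mice and for 7.94% in control mice. Pooled over the genotypes the ranges overlapped slightly, with 8.18 to 8.42 in fasted arrays and 7.97 to 8.20 in fed arrays. The fasting difference was 0.18 ± 0.07 in knockout mice (limma, adjusted p = 0.238) and 0.21 ± 0.07 in control mice (adjusted p = 0.147), and averaged it was 0.20 with a 95% interval of 0.09 to 0.31 (adjusted p = 0.0286). This call was narrow: without 1 of 6 single arrays the adjusted p lay between 0.0510 and 0.0630. These were knockout fasted replicates 1 (0.0578) and 3 (0.0510), knockout fed replicate 3 (0.0577), control fasted replicates 1 (0.0515) and 2 (0.0630) and control fed replicate 2 (0.0552), while without control fed replicate 1 the difference was 0.18 (adjusted p = 0.0474).

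Pik3r1 moved less in size and with a smaller spread. It was at 10.25, 10.30 and 10.37 in knockout fasted mice, against 10.17, 10.20, 10.09 and 10.19 in knockout fed mice. The control values were 10.26, 10.36 and 10.35 in the fasted group, against 10.18, 10.18, 10.17 and 10.09 in the fed group. No fasted array reached down to a fed array, a separation that 1.92% of all genes showed as higher in fasted arrays. The difference was 0.14 ± 0.05 in knockout mice (limma, adjusted p = 0.195) and 0.17 ± 0.05 in control mice (adjusted p = 0.110), and the average of 0.16 had a 95% interval of 0.08 to 0.24 (adjusted p = 0.0183). It passed the threshold without any 1 of the 14 arrays, with differences of 0.14 to 0.17, and without control fed replicate 1 it was 0.16 (adjusted p = 0.0253). The spread within groups was 0.05 for Pik3r1, and 6.76% of all genes had a smaller one.

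The sequences upstream of Pik3r1, the member whose rise held without any single array, and of Socs3, the STAT3 target, were read for response elements of hormones that move with feeding. From RefSeq's table of GRCm38.p6, 9 starts for 7 of the 9 listed genes were read, each over the 250 bases upstream. No start of Insr or Ptpn2 was read, and the search of the members did not take in every chromosome. Both strands were searched for the glucocorticoid response element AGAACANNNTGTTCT (in 0.00913% of 32851 promoters), its half-site AGAACA (16.1%), the FOXO motif GTAAACA (3.17%) and the STAT motif TTCNNNGAA (7.02%), where the half-site is also part of the full element. Neither start of Pik3r1 held a match, at chr13:101768218-101768467 on the minus strand with 76.4% GC and at chr13:101692631-101692880 on the minus strand with 42.4% GC. The Socs3 window, chr11:117969367-117969616 on the minus strand, held 1 match to the STAT motif, in capitals. Of the other 6 starts, that of Stat3 held 1 half-site and the rest no match. A match is a run of letters and not a measured site, and no match says only that these letters are not in the window.
Pik3r1 start 1: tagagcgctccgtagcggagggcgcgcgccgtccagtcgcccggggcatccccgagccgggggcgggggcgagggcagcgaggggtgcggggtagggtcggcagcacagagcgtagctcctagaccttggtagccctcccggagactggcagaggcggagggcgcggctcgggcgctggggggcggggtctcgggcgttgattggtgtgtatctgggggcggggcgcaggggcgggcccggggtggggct
Pik3r1 start 2: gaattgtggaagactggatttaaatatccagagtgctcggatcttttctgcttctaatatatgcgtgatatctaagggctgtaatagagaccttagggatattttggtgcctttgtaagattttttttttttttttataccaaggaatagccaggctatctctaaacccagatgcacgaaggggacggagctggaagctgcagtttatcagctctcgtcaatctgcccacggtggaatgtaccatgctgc
Socs3: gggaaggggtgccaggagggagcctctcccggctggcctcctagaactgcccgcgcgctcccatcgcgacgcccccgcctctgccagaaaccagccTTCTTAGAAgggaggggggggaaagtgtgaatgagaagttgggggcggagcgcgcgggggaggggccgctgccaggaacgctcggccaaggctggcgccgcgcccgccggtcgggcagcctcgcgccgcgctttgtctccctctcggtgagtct

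Several values moved with both rises. Knockout fed replicate 1, which shares the low title numbers of the fasted arrays, lay with the other fed arrays for Insr (8.12) and for Pik3r1 (10.17), below every fasted array. With a low title number (yes or no) as a covariate Insr differed by 0.14 ± 0.11 (limma, adjusted p = 0.721) and Pik3r1 by 0.15 ± 0.08 (adjusted p = 0.561). In that fit 15 genes of the array passed in place of 1715. The covariate rests on 1 array, because only knockout fed replicate 1 differs in it from the rest of its group. The score of 6 microglia markers, the mean of their centred log2 values, was lower in all 6 fasted arrays (-0.492 to 0.0560) than in all 8 fed arrays (0.0576 to 0.321), so it split the arrays as the feeding state did. Of the markers, 4 of 6 fell, among them Cx3cr1, P2ry12 and Aif1. Over the 14 arrays this score had r = -0.57 with Insr and r = -0.70 with Pik3r1, given as a description of arrays that share the fasting contrast. With it as a covariate, chosen after seeing the data, limma called 0 genes of the array (1133 at an unadjusted p under 0.05), and Insr differed by 0.35 (adjusted p = 0.612) and Pik3r1 by 0.22 (adjusted p = 0.646). The cortex and hippocampus score had r = -0.69 with Insr, whose difference was 0.14 ± 0.05 with that score as a covariate (adjusted p = 0.126). The part of these in the rises was not tested.

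**Figure D2:**
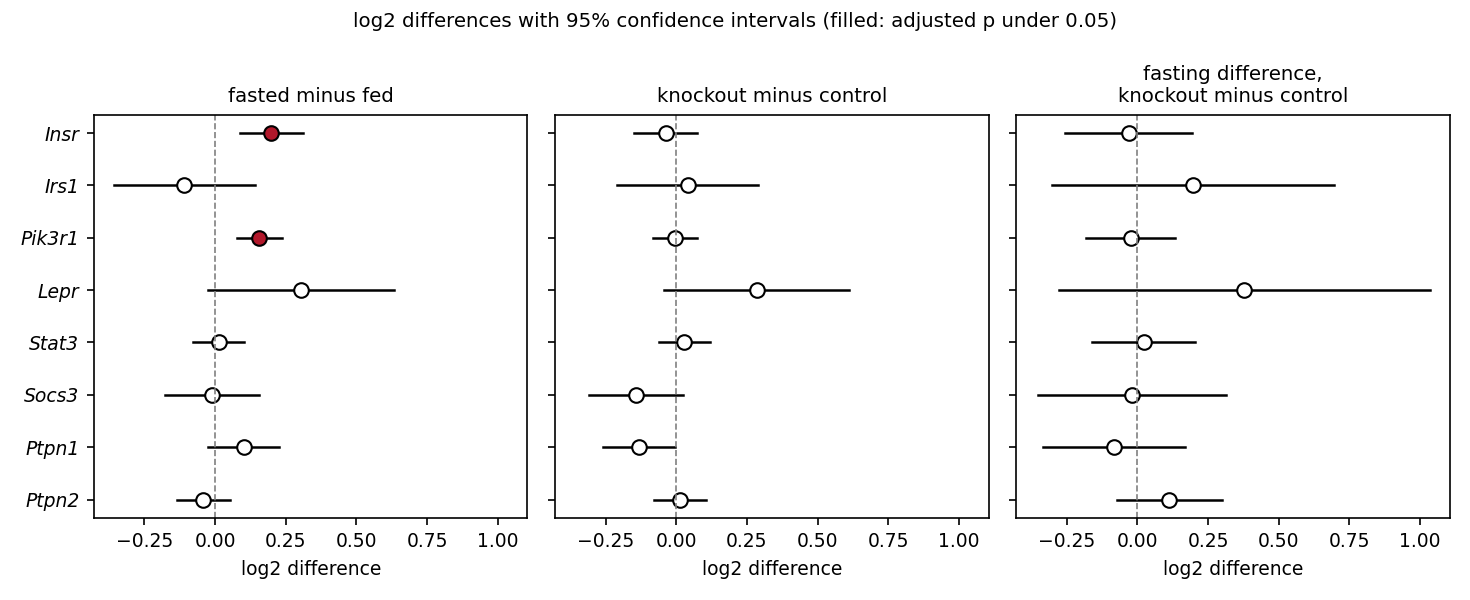
Log2 differences of the 8 genes in limma with 95% intervals, for fasted minus fed and knockout minus control, both averaged, and for the interaction. The averaged fasting intervals of Insr (0.09 to 0.31) and Pik3r1 (0.08 to 0.24) lie above 0, and the interaction intervals of all 8 genes include 0.

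The IRS adaptor gene Irs1 had 2 low arrays among the fasted ones. Its values were 8.39, 7.96 and 8.51 in knockout fasted mice, against 8.20, 8.37, 8.33 and 8.29 in knockout fed mice, and 8.36, 8.44 and 7.64 in control fasted mice, against 8.36, 8.33, 8.40 and 8.33 in control fed mice. The other 4 fasted arrays lay at 8.36 or above, so the groups overlapped. The averaged fasting difference was -0.11 ± 0.12 (95% interval -0.36 to 0.14; limma, adjusted p = 0.601), and without control fasted replicate 3, the array at 7.64, it was 0.02. The SD was 0.29 in knockout fasted and 0.44 in control fasted mice, against 0.07 in knockout fed and 0.03 in control fed mice. The genes whose values followed Irs1 most closely over the 14 arrays were Nufip2 (r = 0.94), Socs4 (r = 0.94) and Ttc21b (r = 0.93).

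Of the genes that damp both pathways, none passed after the fast through its brightest probe set. Ptpn1, which encodes PTP1B, was at 8.69 ± 0.14 in knockout fasted (SD, n = 3) and 8.63 ± 0.05 in knockout fed mice (n = 4). In control mice it was at 8.86 ± 0.09 in the fasted (n = 3) and 8.72 ± 0.14 in the fed group (n = 4), with an averaged difference of 0.10 ± 0.06 (limma, adjusted p = 0.300). Ptpn2, which encodes TCPTP, averaged 8.69 ± 0.12 in knockout fasted and 8.68 ± 0.03 in knockout fed mice, and 8.62 ± 0.08 in control fasted and 8.72 ± 0.05 in control fed mice. Its averaged fasting difference was -0.04 ± 0.04 (95% interval -0.13 to 0.05; limma, adjusted p = 0.597). Socs3, the STAT3-induced inhibitor, stayed near background at 4.22 ± 0.16 in knockout fasted and 4.24 ± 0.16 in knockout fed mice, and at 4.37 ± 0.16 in control fasted and 4.37 ± 0.14 in control fed mice. The interval of its averaged fasting difference ran from -0.18 to 0.16.

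Stat3, the transcription factor that leptin activates through phosphorylation, varied little. It was at 8.22, 8.40 and 8.36 in knockout fasted mice, against 8.31, 8.29, 8.26 and 8.35 in knockout fed mice. In control mice it was at 8.18, 8.33 and 8.35 in the fasted group, against 8.24, 8.35, 8.29 and 8.26 in the fed group. Through this brightest probe set all groups overlapped, and the averaged fasting difference was 0.01 ± 0.04 with a 95% interval of -0.08 to 0.10 (limma, adjusted p = 0.883). Its spread within groups was 0.07, and 14.5% of all genes had a smaller one, so a change of more than about 0.10 in either direction lay outside the interval. The level of this mRNA does not measure the phosphorylation through which leptin acts.

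Lepr, the leptin receptor gene, was highest in knockout fasted mice through its brightest probe set, but no difference passed. It was at 4.53, 4.94 and 4.64 in knockout fasted mice, against 3.72, 4.07, 4.48 and 4.57 in knockout fed mice. The control values were 4.47, 4.12 and 4.10 in the fasted group, against 4.62, 3.93, 4.10 and 3.81 in the fed group. All 3 knockout fasted arrays lay above all 3 control fasted arrays, as did 4.19% of all genes, while the fed groups overlapped over nearly their whole range. The fasting difference was 0.49 ± 0.22 in knockout mice (95% interval 0.03 to 0.96; limma, adjusted p = 0.276) and 0.12 ± 0.22 in control mice, and the interaction, which is the knockout difference minus the control difference, was 0.38 ± 0.30 (-0.28 to 1.04). Averaged over the genotypes the fasting difference was 0.30 ± 0.15 (adjusted p = 0.229). Single fed arrays decided much of this: without control fed replicate 1 the control difference was 0.28 and the interaction 0.21, and without knockout fed replicate 1 the knockout difference was 0.33 and the interaction 0.21. Between genotypes it was 0.47 ± 0.23 in fasted mice (unadjusted p = 0.0602, adjusted p = 1) and 0.28 ± 0.15 averaged over feeding states (adjusted p = 0.999).

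Lepr moved with the genes of the choroid plexus, the epithelium in the ventricles that makes cerebrospinal fluid and itself carries leptin receptors. The score of 9 choroid plexus markers was 0.84, 0.73 and 0.76 in knockout fasted mice and -1.22, 0.93, 0.97 and 1.45 in knockout fed mice, against -0.13, -0.18 and -1.31 in control fasted and 0.71, -1.11, -1.43 and -1.01 in control fed mice. High and low arrays of the score and of Lepr largely coincided, with r = 0.76 over the 14 arrays as a description. All 9 markers were measured, 8 of them had an unadjusted p under 0.05 in the averaged genotype contrast with a median difference of 1.13, and none passed the adjusted threshold. Ttr, 1 of these markers, lay between 9.03 and 13.14. With the score as a covariate the averaged genotype difference of Lepr was -0.08 ± 0.13 (adjusted p = 0.973), and its averaged fasting difference was 0.24 ± 0.10 (adjusted p = 0.133). The part of choroid plexus tissue in the Lepr values was not tested further.

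**Figure D3:**
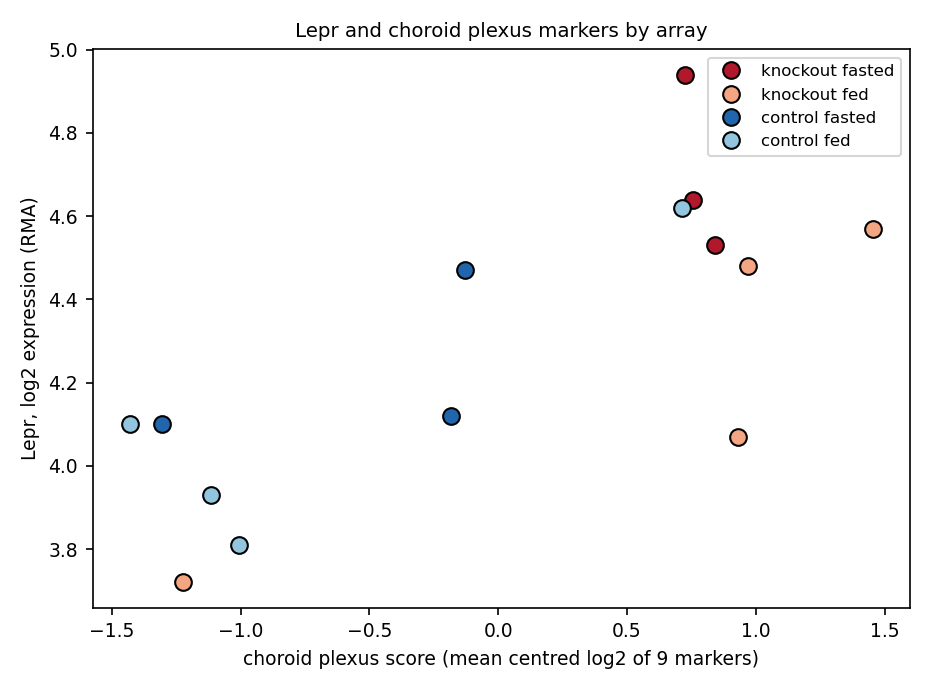
Lepr log2 expression level (vertical axis) against the choroid plexus marker score (horizontal axis, mean of the 9 markers' log2 values centred over all arrays) for the 14 arrays by group. The 3 knockout fasted arrays, at scores of 0.73 to 0.84, hold Lepr values of 4.53 to 4.94, and knockout fed replicate 1, at a score of -1.22, holds the lowest value, 3.72.

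Covariates moved the fasting difference of Lepr in both directions. With a low title number (yes or no) as a covariate it was 0.88 ± 0.28 (limma, adjusted p = 0.272). Knockout fed replicate 1 is the 1 fed array with a low number and has the lowest Lepr value. With the microglia score as a covariate the difference of Lepr was -0.03 ± 0.35 (limma, adjusted p = 0.996). With the cortex and hippocampus score as a covariate its averaged fasting difference was 0.54 ± 0.12 and passed the threshold (limma, adjusted p = 0.0209), without control fed replicate 1 it was 0.39 (adjusted p = 0.0929), and without knockout fed replicate 1 it was 0.22 (adjusted p = 0.336). The other 3 probe sets of Lepr, with means of 3.93, 3.99 and 3.97 near background, differed by 0.10, 0.04 and -0.06 after the fast. Between genotypes, averaged, they differed by 0.24 ± 0.10 (unadjusted p = 0.0297, adjusted p over all probe sets = 0.9995), -0.04 and -0.03 in limma.

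No member differed between genotypes at the threshold, in either feeding state or on average. In limma 1 gene of the array passed on average (0.00585%), 1 in fed mice (0.00585%) and 0 in fasted mice. An unadjusted p under 0.05 was found for 4.62% of all genes in fed mice and 3.87% in fasted mice, and for 0 of the 8 members in either. The median averaged genotype difference of the 8 genes was 0.00. Ptpn1 was the 1 member with an unadjusted p under 0.05 on average, a share that was 4.65% over all genes. It was at 8.53, 8.78 and 8.75 in knockout fasted mice, against 8.76, 8.89 and 8.93 in control fasted mice, and at 8.57, 8.60, 8.67 and 8.67 in knockout fed mice, against 8.56, 8.89, 8.76 and 8.66 in control fed mice. The groups overlapped in both feeding states, and the averaged difference was -0.13 ± 0.06 (95% interval -0.26 to -0.01; unadjusted p = 0.0416, adjusted p = 0.999). Its second probe set, at a mean of 6.98, differed by 0.10 ± 0.08 in the opposite direction.

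Socs3 was at 4.26, 4.35 and 4.04 in knockout fasted mice, against 4.34, 4.22 and 4.54 in control fasted mice, and at 4.08, 4.42, 4.31 and 4.13 in knockout fed mice, against 4.43, 4.29, 4.53 and 4.22 in control fed mice. The groups overlapped in both feeding states, with an averaged difference of -0.14 ± 0.08 (limma, unadjusted p = 0.0897).

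For the other members the averaged genotype intervals bound what these arrays could show. They ran from -0.15 to 0.07 for Insr, from -0.08 to 0.07 for Pik3r1, from -0.06 to 0.12 for Stat3 and from -0.21 to 0.29 for Irs1. The interaction, which asks whether the fast acted differently in knockout mice, passed for 0 genes of the array in limma, with 654 genes (3.83%) and 0 members at an unadjusted p under 0.05. It was -0.03 ± 0.10 (95% interval -0.25 to 0.19) for Insr and -0.02 ± 0.07 (-0.18 to 0.13) for Pik3r1, so the intervals still held differences as large as the fasting rise itself.

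The 21 probe sets of the 8 genes did not all move as the brightest did. Each was tested on its own among 28898 probe sets, of which 8.65% passed in the averaged fasting contrast, and 4 of the 21 did so. A rise passed for the brightest probe sets of Insr (adjusted p = 0.0338) and Pik3r1 (adjusted p = 0.0246), and a fall passed for a dim probe set of Insr and for 1 of the less bright probe sets of Ptpn2. The dim Insr probe set, with a mean of 3.88 near the probe sets without a target, differed by -0.23 ± 0.06 (limma, adjusted p = 0.0336). It was at 3.80, 3.81 and 3.75 in knockout fasted mice, against 3.89, 3.95, 4.14 and 3.80 in knockout fed mice, and at 3.68, 3.74 and 3.74 in control fasted mice, against 3.93, 4.04, 3.89 and 4.21 in control fed mice. Its fasted values were low in both genotypes and reached the fed range only at 3.80 and 3.81. The third Insr probe set, with a mean of 4.20, differed by -0.10 (adjusted p = 0.506). When the probe sets of a gene were averaged, Insr differed by -0.04 (adjusted p = 0.571), so the rise of Insr rests on its bright probe set.

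The Ptpn2 probe set with a mean of 5.32 was at 5.12, 4.82 and 5.13 in knockout fasted mice, against 5.25, 5.28, 5.48 and 5.77 in knockout fed mice. In control mice it was at 4.74, 5.27 and 5.17 in the fasted group, against 5.36, 5.6, 5.82 and 5.71 in the fed group. Fasted arrays lay below fed arrays within both genotypes, which 5.64% of all genes did in knockout and 8.57% in control mice through their brightest probe sets. The averaged difference was -0.49 ± 0.11 (limma, adjusted p = 0.0147). The other Ptpn2 probe sets differed by -0.19 ± 0.08 (mean 5.01), -0.10 ± 0.05 (mean 7.77) and -0.04 for the brightest, and the mean of all 4 fell by 0.21 on the log2 scale (adjusted p = 0.0162). For Pik3r1 the other probe sets differed by 0.14 ± 0.06 (adjusted p = 0.152), 0.11 ± 0.05 (adjusted p = 0.214) and -0.02 ± 0.09 (adjusted p = 0.910). None of these passed on its own. When the probe sets of Pik3r1 were averaged, it differed by 0.095, the lowest of its alternatives, against 0.16 for the brightest. The second probe set of Stat3, with a mean of 4.69, differed by 0.09 (adjusted p = 0.346) and that of Ptpn1 by 0.12 ± 0.08. That of Stat3 averaged 4.83 in control fasted and 4.635 in control fed mice, and 4.65 in knockout fasted and 4.67 in knockout fed mice. Which transcript forms these probe sets read was not analysed here.

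**Figure D4:**
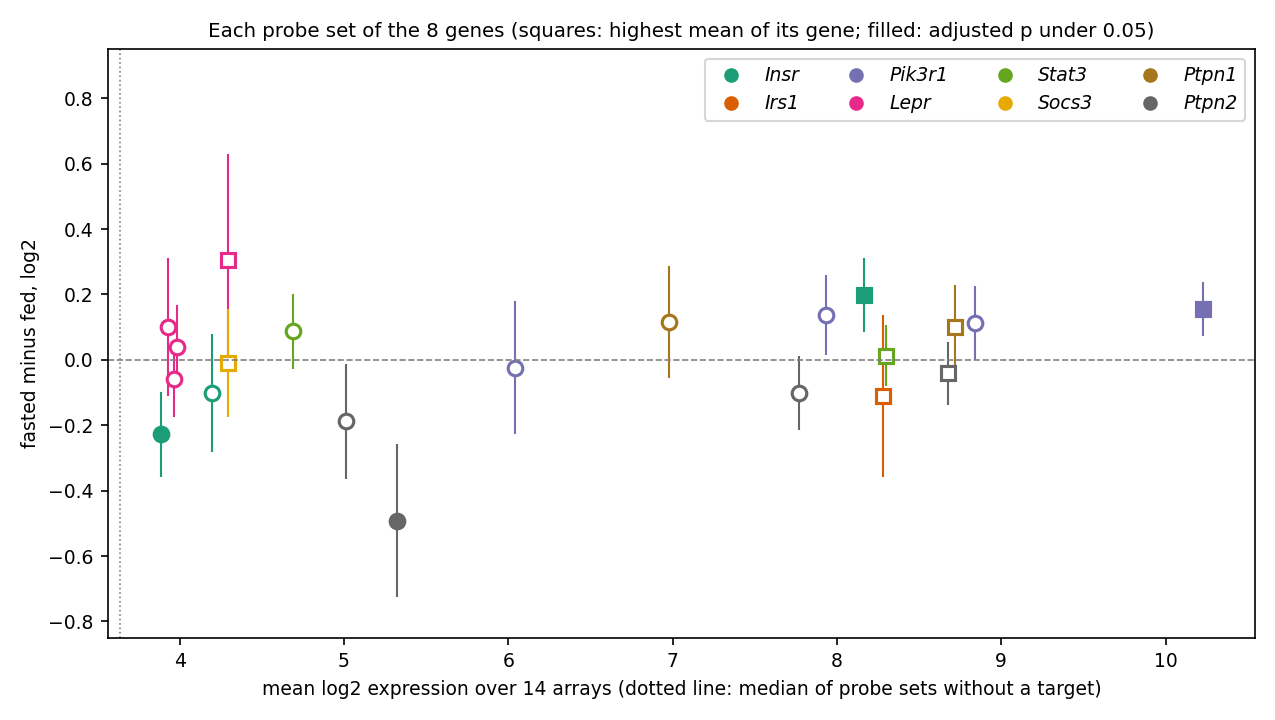
Averaged fasting difference (fasted minus fed, log2, with 95% intervals) of each of the 21 probe sets of the 8 genes, against its mean log2 level over the 14 arrays. The Insr probe sets lie on both sides of 0, at 0.20 for the brightest and -0.23 for the dimmest, and those of Ptpn2 lie between -0.49 and -0.04.

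Across the arrays Insr and Pik3r1 moved together, with r = 0.69 over 14 arrays, but not within groups, where the deviations from the group means had r = 0.03. Stat3 and Ptpn1 showed the opposite pattern, with r = 0.51 over the values and r = 0.83 over the deviations. These correlations share arrays and groups and are given as descriptions. Among 8340 genes with a mean above the median of all genes tested, those whose values were most like Pik3r1 were Cldn11 (r = 0.95), a tight junction gene of oligodendrocytes, Eif3f (r = 0.95) and Apod (r = 0.93). The score of 5 measured oligodendrocyte markers had r = -0.55 with Pik3r1, and lay at -0.23 to 0.11 in knockout fasted and -0.06 to 0.22 in knockout fed mice, and at -0.16 to -0.12 in control fasted and 0.04 to 0.14 in control fed mice. For Insr they were Nob1 (r = 0.86), Crebrf (r = 0.84) and Esd (r = 0.83), and for Lepr they were Slc6a20a (r = 0.85), Tgfbr3 (r = 0.83) and Ezr (r = 0.82). By deviations from the group means, Clic6, a choroid plexus marker, was most like Lepr (r = 0.90), while Tysnd1 was most like Stat3 (r = 0.92) and Dpf2 most like Ptpn1 (r = 0.94). By the same measure Casd1 was most like Socs3 (r = 0.91), Tomm40l most like Ptpn2 (r = 0.92) and Rffl most like Irs1 (r = 0.97).

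The wider pathways were read from 5 lists with 82 further genes, of which 72 were measured. After the fast 4 of the 72 rose and 9 fell in limma, a share to be read against the 10.0% of all genes, and their median difference was -0.02. By step, 0 rose and 1 fell among 12 receptors and adaptors (median -0.03), 0 rose and 4 fell among 15 genes between phosphoinositide 3-kinase and AKT (median -0.07), 1 rose and 0 fell among 13 AKT targets and mTOR genes (median 0.00), 2 rose and 3 fell among 24 leptin and JAK-STAT genes (median -0.04), and 1 rose and 1 fell among 8 receptors of the gp130 family (median 0.08). In the averaged genotype contrast and in the interaction 0 of the 72 passed, with 3 and 4 at an unadjusted p under 0.05, against 4.65% and 3.83% of all genes.

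The gene with the smallest p was Ptpn11, which encodes SHP2, a phosphatase that binds the activated leptin receptor and insulin receptor substrates and links them to the MAP kinase cascade. It was at 11.16, 11.19 and 11.05 in knockout fasted mice, against 10.80, 10.90, 10.78 and 10.83 in knockout fed mice, and at 11.14, 11.18 and 11.14 in control fasted mice, against 10.80, 10.80, 10.82 and 10.74 in control fed mice. All fasted arrays lay above all fed arrays, and the difference was 0.31 in knockout mice (limma, adjusted p = 0.0174), 0.36 in control mice (adjusted p = 0.00242) and 0.33 ± 0.04 on average (adjusted p = 0.000176). It passed without any 1 of the 14 arrays, and knockout fed replicate 1, at 10.80, lay with the fed arrays. Lifr, the receptor of leukaemia inhibitory factor and a partner of gp130, rose by 0.43 ± 0.06 (adjusted p = 0.00135), with 9.52 to 9.97 in fasted and 9.12 to 9.48 in fed arrays. Knockout fed replicate 1 was its highest fed array at 9.48, above the range of the other fed arrays, and the knockout fasted mean lay 0.11 above it. Foxo3, a transcription factor that insulin signalling keeps out of the nucleus through AKT, rose by 0.23 ± 0.05 (adjusted p = 0.0104), and Pias1 by 0.19 ± 0.05 (adjusted p = 0.0255). With 1 array left out at a time, the rise passed in 14 of 14 fits for Lifr and for Foxo3, and in 11 for Pias1.

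Of the genes that fell, Pde3b, a cyclic AMP phosphodiesterase that insulin and leptin activate, was lower by 0.20 with an SE of 0.05 (limma, adjusted p = 0.0197), at 7.59 to 7.81 in fasted and 7.74 to 7.97 in fed arrays. Ptpn6, the SHP1 phosphatase gene that blood cells and microglia express, differed by -0.22 ± 0.05 (adjusted p = 0.0143), at 4.49 to 4.73 in fasted and 4.66 to 4.98 in fed arrays, and knockout fed replicate 1 was its lowest fed array at 4.66. With the microglia score as a covariate Ptpn6 differed by -0.25 (adjusted p = 0.758). Between phosphoinositide 3-kinase and AKT, falls passed for Akt2 (-0.25 ± 0.07, adjusted p = 0.0377), for Phlpp1, whose product dephosphorylates AKT (-0.24 ± 0.06, adjusted p = 0.0262), for Pde3b, and for the leukocyte-enriched catalytic subunit gene Pik3cd (-0.31 ± 0.09, adjusted p = 0.0388). The docking protein gene Gab1 (-0.31 ± 0.09, adjusted p = 0.0385), Stat2 (-0.35 ± 0.10, adjusted p = 0.0343), Socs5 (-0.15 ± 0.04, adjusted p = 0.0326) and the gp130 gene Il6st (-0.24 ± 0.06, adjusted p = 0.0344) also fell. Knockout fed replicate 1 lay within the fasted range and outside the other fed arrays for Akt2 (7.16) and Il6st (8.68), and within both ranges for Stat2 (5.13) and Socs5 (10.19). Of the 14 fits that each left out 1 array, the fall passed in 2 for Gab1 and for Pik3cd, in 4 for Socs5, in 5 for Akt2 and for Il6st, in 6 for Stat2, in 10 for Phlpp1 and in 14 for Pde3b and for Ptpn6.

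**Figure D5:**
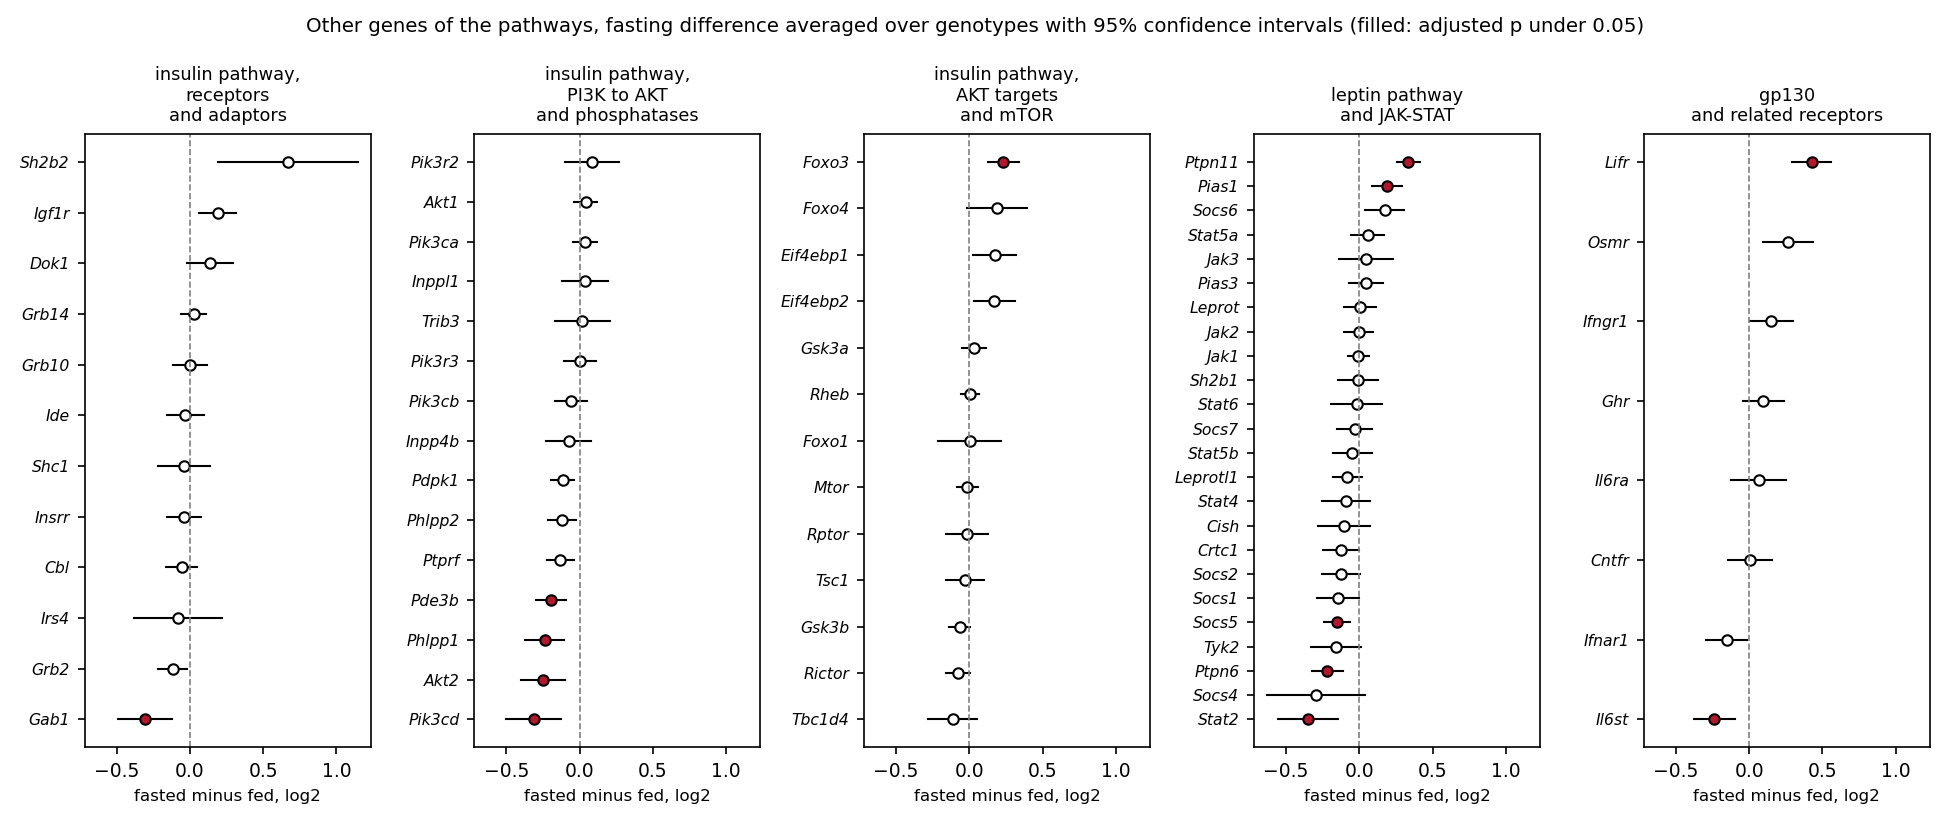
Averaged fasting difference (fasted minus fed, log2) with 95% intervals of the 72 measured genes of the 5 pathway lists, with the genes that passed in limma filled. Ptpn11 (0.33) and Lifr (0.43) stand highest among the rises that passed, and Stat2 (-0.35) lowest among the falls.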

How the data were processed

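Hypothalamic RNA (150 ng per array) was measured on 14 arrays in 4 groups. The deposited table holds log2 values. The submitters' processing notes name RMA and affy without versions. RMA corrects background, brings arrays to a common distribution and summarises probes, which compresses differences of dim probe sets. For the annotation of the probe sets, no genome build is named in the sources used here. Values were used as deposited. Array medians lay between 4.98 and 5.05, the correlation of any 2 arrays between 0.9908 and 0.9968 (Pearson's r across probe sets), and no pair shared more than 2.86% identical values. Precision is limited by the small number of arrays.

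Of 45141 probe sets, 28898 named 1 gene, 551 several and 15692 none in the platform annotation. Each of 17097 genes was tested through its single-gene probe set with the highest mean. All 14 arrays entered 1 limma model (version 3.58.1, R 4.3.3) with a coefficient for each group, by lmFit and eBayes (10 residual and 3.27 prior degrees of freedom). Tests were two-sided, adjusted by the Benjamini-Hochberg method over all genes, with a threshold of 0.05. The 7 contrasts were fasted minus fed and knockout minus control, each averaged and split, and the interaction. The fit was tested on simulated data.

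The members and lists were chosen with earlier results of these data known. All members and all their probe sets were named. Of each pathway list, up to 6 genes past the threshold with the smallest p were named. Of genes alike in pattern, the 3 with the highest r were taken, by values and by deviations from group means, and some are given. A marker score is the mean of the markers' log2 values, each centred over all arrays. Alternatives were another prior, removal of the dimmest 40% of genes, other rules for probe sets and only the groups compared. Further ones were covariates for a low title number (yes or no) and for marker scores, and leaving out each array.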

Additional observations from a re-analysis of the deposited data

Results flagged for a closer look

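Among 92 groups of 4 arrays, 9 had 1 array far from the other 3, relative to the range of the group, by Dixon's test. For unrounded values chance flags about 1 in 20 groups. The deposited values are rounded, so that rate need not hold, and small gaps can be flagged, as for Lifr. In knockout fed mice the flagged groups were a Lepr probe set at 3.90 in 1 array (4.03 to 4.05 in the others), a Ptpn2 probe set at 7.96 (7.74 to 7.75), Il6st at 8.68 (8.86 in the others) and the erythrocyte score at 0.59 (-0.13 to -0.07). In control fed mice they were a Lepr probe set at 4.12 (3.66 to 3.70), the brightest Pik3r1 probe set at 10.09 (10.17 to 10.18), Lifr at 9.25 (9.27 in the others), the endothelium and pericyte score at -0.13 (0.10 to 0.14) and the cortex and hippocampus score at 0.82 (-0.11 to 0.03).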

How the results depend on the processing

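For the 8 genes, 1250 values were recomputed for 56 results. Only 2 of these results, the averaged fasting rises of Insr and Pik3r1, had passed, so the others had no call to lose. Of the values, 1233 kept their direction and side of the threshold or passed in neither, and 97 of these had a changed sign. A further 12 lost a call, 4 gained one and 1 reversed. The rise of Insr passed in 12 of 22 alternatives and that of Pik3r1 in 19 of 22. When all probe sets of a gene were averaged Insr differed by -0.044, and with the microglia score as a covariate, added after seeing the data, Gab1 differed by 0.24 and Phlpp1 by 0.022. Of the counts over all genes, 1715 passed for fasting on average, 472 in control mice and 119 in knockout mice. With a low title number (yes or no) as a covariate these were 15, 2 and 0. For genotype 6, 2 and 3 genes passed on average, in fed and in fasted mice, and 1 for the interaction. These genotype and interaction counts are the same as without knockout fed replicate 1, because there the covariate only sets that array aside. With the microglia score as a covariate limma called 0 in the fasting contrasts on average, in control and in knockout mice (1133, 993 and 1221 at an unadjusted p under 0.05) and 0 for genotype in fed mice (798). With the cortex and hippocampus score 1134 passed for fasting on average, 71 in knockout mice and 0 for genotype in fed mice. A trended robust prior gave 770 in control mice, 341 in knockout mice, 4 for genotype on average and 2 in fed mice. Removal of the dimmest 40% of genes gave 231 for fasting in knockout mice and 2 for genotype in fed mice, and every probe set tested on its own gave 181 and 0. The mean of probe sets gave 0 for genotype on average and 0 in fed mice, and the choroid plexus score gave 4 for genotype on average. Fits of only the groups compared gave 10 for fasting in knockout mice, 0 for genotype in fed mice and 4 in fasted mice. Leaving out 1 array at a time gave 998 to 2120 for fasting on average, 216 to 685 in control and 18 to 363 in knockout mice, 1 to 6 for genotype on average, 0 to 3 in fed and 0 to 3 in fasted mice, and 0 to 1 for the interaction. The lowest count for fasting on average came without knockout fasted replicate 2. The causes were not tested. Lepr and Socs3 lay near background, which limits what their differences can show. No paired analysis was possible because no title number occurs more than once.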
